A study of Rattus norvegicus with 8 samples.

Results

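The genes described here are 10 transcription factors of the intestinal secretory lineage: Atoh1, Gfi1, Spdef, Klf4, Foxa1, Foxa2, Foxa3, Creb3l1, Creb3l4 and Bhlha15. They were matched by gene symbol, and each symbol matched exactly 1 of the 52753 loci of the deposited table. RNA was sequenced from the whole small intestine of Sprague Dawley rats on postnatal day 21, with 4 samples labelled CF and 4 labelled WT. CF stands for cystic fibrosis, the disease that follows loss of the epithelial anion channel CFTR, and WT for wild type. The labels give neither the CF allele nor the sex, litter or batch of the rats, and they leave unsaid if every library stands for a separate animal, so the p-values measure only the spread between these libraries. Within each group the table numbers its libraries from 0 to 3, and these numbers serve only as names.

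Intestinal stem cell daughters that escape Notch signalling switch on Atoh1, the basic helix-loop-helix factor that commits them to the secretory fate. Downstream factors then sort and mature the secretory cells: Gfi1 favours goblet and Paneth cells over enteroendocrine cells, Spdef and Klf4 act in goblet cell maturation, and the forkhead factors Foxa1 and Foxa2 act in goblet and enteroendocrine cells. Creb3l1 and Creb3l4 are held in the membrane of the endoplasmic reticulum until they are cleaved, and Bhlha15, also called MIST1, enlarges the secretory machinery of cells that store and release protein. Mucus that is poorly hydrated and stays attached to the epithelium is a known feature of the CF intestine.

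Creb3l1 was higher in the CF intestine, 2.32-fold over WT (95% interval 1.97 to 2.73), and it was the 1 member of the 10 that passed the test over all loci. The other 9 had estimates of the same sign and smaller size, with log2 fold changes (CF over WT) from 0.37 to 0.65, and none of them passed. The fit was edgeR's quasi-likelihood test on 16941 loci with enough fragments, adjusted by the Benjamini-Hochberg method with a threshold of 0.05, and all 10 members were among those loci. Over all tested loci 0.136% were called higher in CF. The log2 fold change was above 0 for all 10 members and for 49.2% of all tested loci. The members' median was 0.49, against −0.00491 for all tested loci. At an unadjusted p under 0.05, 7 of the 10 members were higher, against 7.94% of tested loci, and these are the 7 whose 95% intervals lay above 0. The genes were not picked blind to these data, so their counts beside those of all loci are a description.

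The libraries of the groups did not overlap for 4 members, Atoh1, Spdef, Foxa3 and Creb3l1, in CPM (fragments scaled to library size). Every CF library was above every WT library for these 4 genes, as it was for 4.86% of tested loci. CF library 0 was low in enterocyte genes, so the counts were also made without it. Then 2 members were called, Creb3l1 and Klf4, where 0.678% of 17407 tested loci were called higher. CF library 0 held the lowest Klf4 value of any library, so the Klf4 call is not independent of leaving it out. With any other library left out Klf4 was not called. A check of the members' CPM within each group flagged no outlying library. Without that library 6 members had groups that did not overlap, against 8.27% of tested loci. Without WT library 1, the highest WT library for 7 of the members, that count was 7, against 5.86% of tested loci. WT library 1 was singled out after these members' values were seen, so those 2 shares are not a like comparison. Without any 1 of the other 6 libraries the count was 4 or 5. DESeq2 called 4 members, Creb3l1, Atoh1, Spdef and Foxa3, with 2.22% of 18265 loci called higher. With no filter on low counts, edgeR called these 4 and Foxa1, with 0.988% of 40061 loci called higher.

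**Figure D1:**
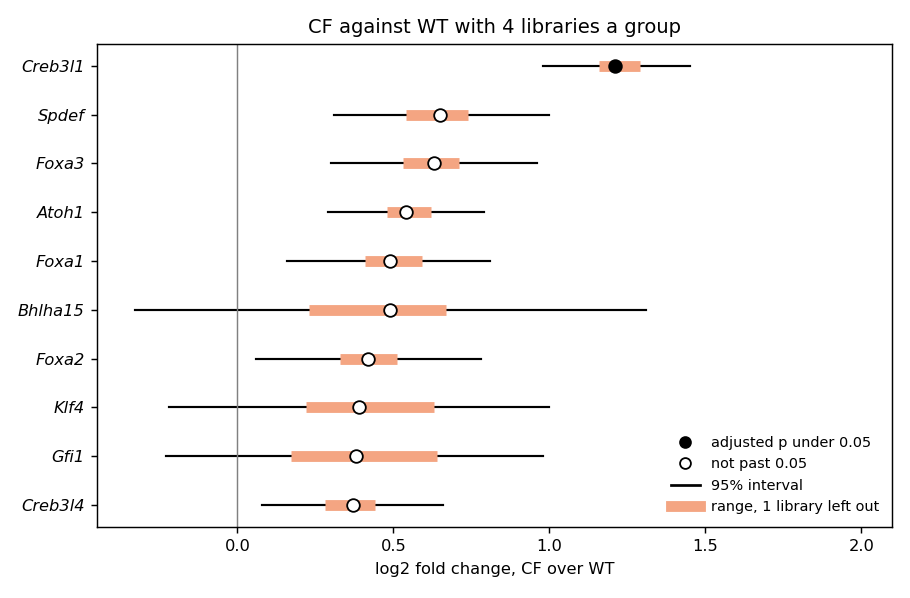
Log2 fold change, CF over WT, of the 10 transcription factor genes (vertical axis), with 95% intervals as thin lines and the range with 1 library left out in turn as thick bars. Creb3l1, the filled point at 1.21, stands to the right of the other 9, whose estimates lie between 0.37 and 0.65.

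Atoh1, the factor that opens the secretory fate, was at 81.7, 79.0, 78.2 and 93.7 CPM in CF libraries 0 to 3 and at 50.5, 65.5, 51.6 and 60.7 CPM in WT libraries 0 to 3. The lowest CF library stood above the highest WT library. The means were 83.2 ± 7.18 CPM in CF and 57.1 ± 7.21 CPM in WT (SD, n = 4 each), and the log2 fold change came to 0.54 (SE 0.11, 95% interval 0.29 to 0.79). With an adjusted p of 0.0809 from edgeR's test, Atoh1 (chromosome 4, 95498002 to 95500089 in Rnor_6.0) did not pass. Here and for every gene in bulk tissue, more cells of a type and more RNA per cell cannot be told apart.

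Gfi1, a zinc-finger repressor that acts below Atoh1, was among the 3 least abundant members per length. It lay between 5.42 and 7.93 CPM in CF and between 2.86 and 7.88 CPM in WT. WT library 1 was nearly as high as the highest CF library, and WT library 0 was low. The log2 fold change came to 0.38 (SE 0.27, 95% interval −0.23 to 0.98, adjusted p = 0.546), and it was 0.17 without WT library 0 and 0.64 without WT library 1. The gene lies on chromosome 14, 3058992 to 3068375.

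Spdef, the ETS-family factor of goblet and Paneth cell maturation, was at 71.4, 54.6, 59.8 and 80.6 CPM in CF libraries 0 to 3. In WT libraries 0 to 3 it was at 32.1, 47.7, 45.9 and 43.7 CPM. The groups did not overlap, with CF libraries 0 and 3 the highest and WT library 0 the lowest. Means were 66.6 ± 11.7 CPM and 42.3 ± 7.04 CPM (SD, n = 4 each), and the log2 fold change of 0.65 (SE 0.16, lower 95% bound 0.31) missed the threshold with an adjusted p of 0.111. Its locus is on chromosome 20, 7290876 to 7314434.

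Klf4, a zinc-finger factor of goblet cells that differentiated enterocytes also make, had the widest range of CPM among the CF libraries. It was at 83.3, 245, 215 and 184 CPM in CF libraries 0 to 3, against 148, 128, 135 and 144 CPM in WT libraries 0 to 3. CF library 0 held the lowest value of all 8, while the other CF libraries held the 3 highest. With all libraries the log2 fold change came to 0.39 (SE 0.27, adjusted p = 0.528), a 1.31-fold difference with a 95% interval from 0.858-fold to 2.01-fold. Without CF library 0 it was 0.63, and Klf4 passed with an adjusted p of 0.0466 from edgeR's test. With any other library left out Klf4 did not pass (adjusted p 0.568 to 0.749). CF library 0 was also low in enterocyte transcripts: the 9 enterocyte markers found, all of them tested and none at 0, summed to 10122 CPM there. They summed to 19244 to 28877 CPM in the other CF libraries and to 15052 to 26407 CPM in WT. The part of enterocyte content in the Klf4 values was not tested. The locus is on chromosome 5, 72283312 to 72287669.

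The 3 forkhead factors, pioneer factors that can bind closed chromatin, stood at different levels and had similar estimates. Foxa3 was at 43.3, 30.0, 31.8 and 39.3 CPM in CF libraries 0 to 3 and at 19.2, 26.5, 22.0 and 25.5 CPM in WT libraries 0 to 3. The groups did not overlap, and the log2 fold change came to 0.63 (SE 0.15, 95% interval 0.30 to 0.96, adjusted p = 0.107). The table's span for Foxa3 (chromosome 1, 79920751 to 79959461) also covers Sympk, a gene for a scaffold protein of mRNA 3′ end processing, whose log2 fold change came to 0.25 (SE 0.10, adjusted p = 0.269).

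Foxa1 lay between 22.7 and 30.7 CPM in CF and between 15.8 and 22.7 CPM in WT, and the highest WT library reached above the lowest CF library. Its log2 fold change came to 0.49 (SE 0.14, 95% interval 0.16 to 0.81, adjusted p = 0.179), at chromosome 6, 78544599 to 78549768. Foxa2 was at 5.53 to 8.08 CPM in CF and 4.69 to 5.60 CPM in WT, with 3 of 4 CF libraries above all WT libraries. Its log2 fold change came to 0.42 (SE 0.16, 95% interval 0.06 to 0.78, adjusted p = 0.271), at chromosome 3, 142383277 to 142387481. None of the 3 forkhead genes passed edgeR's test.

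Creb3l1, also called OASIS, encodes a membrane-bound bZIP factor that is released by cleavage in the Golgi and then enters the nucleus. It was at 211, 184, 159.8 and 197 CPM in CF libraries 0 to 3 and at 81.9, 82.5, 80.7 and 78.9 CPM in WT libraries 0 to 3. In CPM the WT libraries were nearly equal, with a coefficient of variation of 1.96%, and even the lowest CF library was far above them. Means were 188 ± 21.7 CPM in CF and 81.0 ± 1.59 CPM in WT (SD, n = 4 each). The log2 fold change came to 1.21 (SE 0.11, 95% interval 0.98 to 1.45), with an adjusted p of 0.00147 from edgeR's quasi-likelihood test. By unadjusted p it ranked 3 among the 16941 loci. With any 1 library left out the log2 fold change was 1.16 to 1.29 and the adjusted p 0.00137 to 0.0194. On the deposited FPKM values (fragments scaled to transcript length and library size) the groups did not overlap either, with 38.2 to 63.9 in CF and 18.5 to 29.7 in WT. The WT libraries were less even on FPKM, at 22.2 ± 5.13 (SD, n = 4). There, however, limma's test lost the call, with an adjusted p of 0.0753 on log2(FPKM + 1) and of 0.0765 on log2(FPKM + 0.1). The locus covers chromosome 3, 80892434 to 80933283, and no other named gene of the table lies in that span.

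Creb3l4, the close relative of Creb3l1 that is held in the same membrane, did not pass. It was at 41.8, 48.7, 51.3 and 56.4 CPM in CF libraries 0 to 3 and at 31.2, 43.9, 41.2 and 37.4 CPM in WT libraries 0 to 3. CF library 0 lay within the WT range, and the other CF libraries above it. The log2 fold change came to 0.37 (SE 0.13, 95% interval 0.08 to 0.66, adjusted p = 0.238). The span of Creb3l4 (chromosome 2, 189454339 to 189602191) holds 7 loci in all, among them the ribosomal protein gene Rps27 with a log2 fold change of 0.10, Jtb with 0.13 and Rab13 with −0.04. None of these passed. Fragments of Creb3l4 were not whole numbers (866.2 in CF library 0, for example), and the authors' deposited table gives its FPKM of 15.4 in CF an interval from 0 to 31.2. The level of Creb3l4 is therefore less certain than its spread between libraries shows.

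The stretches before the start sites of Creb3l1 and Creb3l4 are shown because these related genes differed in whether they passed. They come from RefSeq's annotation of build GRCr8, which is not the build of the counts, and run 5′ to 3′ up to the base before the start site. Creb3l1 is at chr3:98449105-98449354 and Creb3l4 at chr2:177993486-177993735, both on the minus strand, and capitals mark matches to the motifs searched.
Creb3l1: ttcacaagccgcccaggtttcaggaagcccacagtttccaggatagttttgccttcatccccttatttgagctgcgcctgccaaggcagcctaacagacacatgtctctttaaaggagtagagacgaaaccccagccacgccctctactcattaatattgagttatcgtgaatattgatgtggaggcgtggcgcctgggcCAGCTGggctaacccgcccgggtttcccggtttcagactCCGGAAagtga
Creb3l4: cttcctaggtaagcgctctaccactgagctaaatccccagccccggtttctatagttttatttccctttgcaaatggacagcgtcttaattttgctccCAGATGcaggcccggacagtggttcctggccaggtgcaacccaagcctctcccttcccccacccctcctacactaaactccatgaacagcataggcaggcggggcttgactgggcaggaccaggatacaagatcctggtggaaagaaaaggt

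The search covered 8 short motifs on both strands of 33469 promoter windows, each also holding the first 50 bases after the start site. The E-box CAGCTG, a core that basic helix-loop-helix factors such as Atoh1 and Bhlha15 can bind, occurred in 15.1% of all windows, and CAGATG, another E-box, in 16.6%. The ETS cores CCGGAA and CCGGAT, of the kind Spdef binds, occurred in 5004 and 2222 windows, the latter 6.64%. The forkhead motif TGTTTAC was in 3.78%, the KLF motif CACACCC in 7.08%, the cyclic AMP response core TGACGT in 7.94%, and CCACGT, part of the endoplasmic reticulum stress element, in 7.84%. None of these letters overlaps another motif in the windows shown. Promoters matched 9 of the 10 members, without Foxa1. The Creb3l1 window held CAGCTG from −50 to −45 and CCGGAA from −11 to −6, counted back from the start site. Creb3l4 held CAGATG from −152 to −147 and Bhlha15 held CCGGAT from −178 to −173, and the other 6 windows held none of the 8 motifs. A match to such short letters is a description of the sequence only.

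Bhlha15, the factor that scales up regulated secretion, was the least abundant member per length, with a coefficient of variation of 41.8% in CF and 39.2% in WT. It was at 9.69, 3.89, 4.63 and 7.78 CPM in CF libraries 0 to 3 and at 2.07, 5.02, 5.12 and 6.35 CPM in WT libraries 0 to 3. The groups overlapped, with 2 CF libraries above all WT libraries and CF libraries 1 and 2 inside the WT range. The log2 fold change came to 0.49 (SE 0.37, 95% interval −0.33 to 1.31, adjusted p = 0.561), at chromosome 12, 12403384 to 12407561. It was 0.23 without CF library 0 and 0.25 without WT library 0.

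Pancreatic acinar cells and plasma cells also make Bhlha15, so their markers are given beside it. The 7 pancreatic markers found summed to 126 CPM in CF library 2 and 54.8 CPM in WT library 1, and to at most 18.6 CPM in the other 6 libraries. Bhlha15 was at 4.63 CPM in CF library 2 and at 5.02 CPM in WT library 1. The 8 plasma and B cell markers, none of them at 0 in all libraries, summed to 243 to 301 CPM in CF and 207 to 237 CPM in WT. All 7 of those tested had a log2 fold change above 0, and none passed. Most of the sum was Sdc1 (233 ± 24.0 CPM in CF against 187 ± 11.4 in WT), a proteoglycan that epithelial cells make too. CF library 0, the highest for Bhlha15, had the lowest sum of the CF libraries but the highest Mzb1 (2.22 CPM) and Cd79a (2.99 CPM) of all 8. WT library 0, the lowest for Bhlha15, had the lowest Jchain (0.487 CPM) and Mzb1 (0.122 CPM). These 3 genes of plasma and B cells were singled out after their values were seen. The part of pancreatic, plasma or B cells in the Bhlha15 values was not tested.

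**Figure D2:**
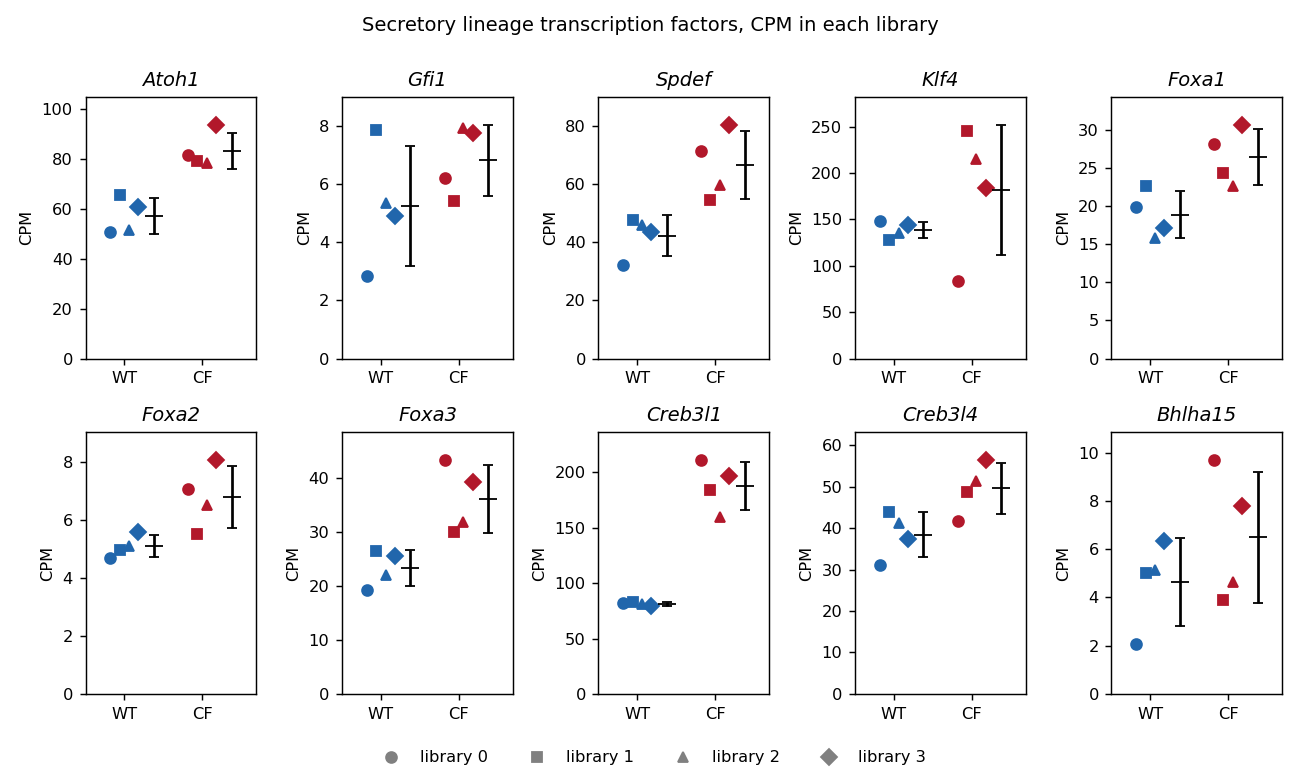
CPM of each gene in every library, with WT in blue, CF in red, marker shape for the library number and bars for mean ± SD of 4 libraries; each vertical axis starts at 0. Creb3l1, Atoh1, Spdef and Foxa3 have groups that do not overlap, and CF library 0 is the low circle of Klf4.

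The members shared a pattern over the libraries. WT library 0 was the lowest of all 8 libraries for 7 of the 10 members, while CF library 0 was lowest for Klf4, WT library 2 for Foxa1 and WT library 3 for Creb3l1. CF library 3 was the highest of all for 5 members and CF library 0 for Foxa3, Creb3l1 and Bhlha15, with CF library 1 highest for Klf4 and CF library 2 for Gfi1. Within WT, library 1 was the highest for 7 members. Goblet cell products also had their lowest sum in WT library 0, at 7039 CPM, and their highest in CF library 3, at 15724 CPM. WT libraries 0 and 3 held the fewest fragments, 15.3 M each, and library 3 was the lowest for Creb3l1 alone. The part of depth in this pattern was not tested. Without WT library 0 the log2 fold change was 0.54 for Spdef, against 0.65 with all libraries.

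**Figure D3:**
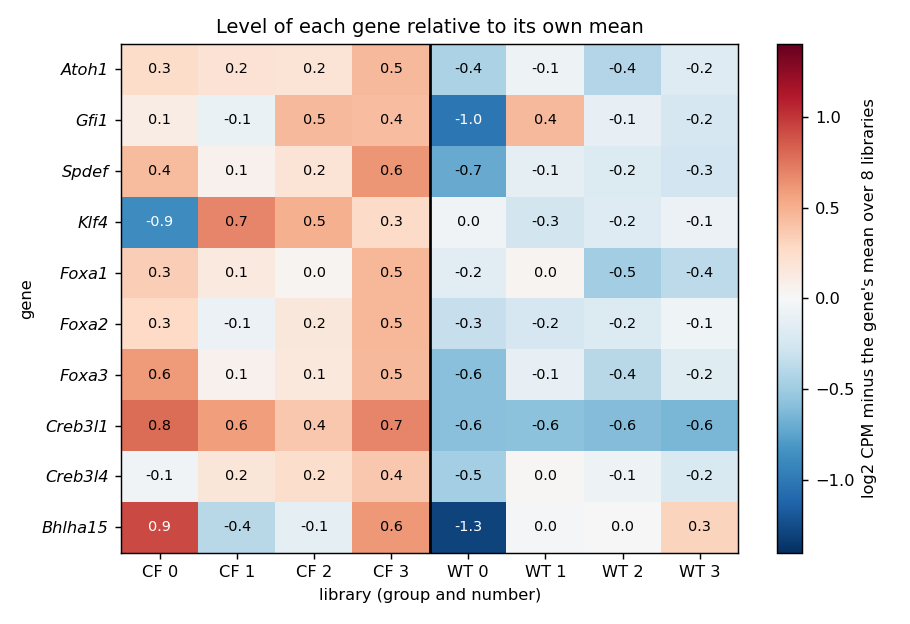
Log2 CPM of each gene in each library minus the gene's mean over the 8 libraries, red above and blue below the mean. WT library 0 holds the lowest value for 7 genes and CF library 3 the highest for 5, while Creb3l1 is nearly even across the WT libraries.

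A call for 1 gene and none for another does not show that they differ, so ratios between genes were compared within each library. Of 8 ratios tested, the 3 that set Creb3l1 against Creb3l4, Atoh1 or the goblet products had groups that did not overlap. The CPM of Creb3l1 by itself did not overlap between groups, so these 3 ratios are not evidence separate from its own difference. The log2 ratio of Creb3l1 to Creb3l4 was 1.92 ± 0.30 in CF and 1.09 ± 0.21 in WT, a difference of 0.84. The ratio of Creb3l1 to Atoh1 was 1.17 ± 0.15 in CF and 0.51 ± 0.18 in WT, a difference of 0.66. Against the mean of 11 goblet product genes, Creb3l1 was at −0.81 ± 0.31 in CF and −1.59 ± 0.32 in WT, a difference of 0.78 (SD, n = 4 each throughout). Each of the 3 had p = 0.0286 in a two-sided exact permutation test, the smallest p that 4 against 4 libraries allows. The adjusted p was 0.0762 over the 8 ratios, so none passed after adjustment. With only 3 ratios at that smallest p, none could have passed, so not passing carries no information about them. On log2(FPKM + 0.1) the ratio to Atoh1 overlapped between groups, with WT library 2 above CF library 3 (exact permutation p = 0.0571).

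The log2 ratio of Creb3l1 to Spdef was 1.29 to 1.75 in CF and 0.79 to 1.35 in WT, and the groups overlapped through WT library 0 (exact permutation p = 0.0571, adjusted p = 0.114). On log2(FPKM + 0.1) it did not overlap (exact permutation p = 0.0286), so which of these ratios separate the groups depends on whether CPM or FPKM is used. Spdef to Atoh1 differed by 0.10 between CF and WT (exact permutation p = 0.457). Between the forkhead genes the differences were 0.08 for Foxa1 to Foxa2, −0.14 for Foxa1 to Foxa3 and −0.22 for Foxa2 to Foxa3, with exact permutation p-values of 0.629, 0.400 and 0.114. These 4 ratios had overlapping groups, and their adjusted p-values were 0.183 to 0.629.

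**Figure D4:**
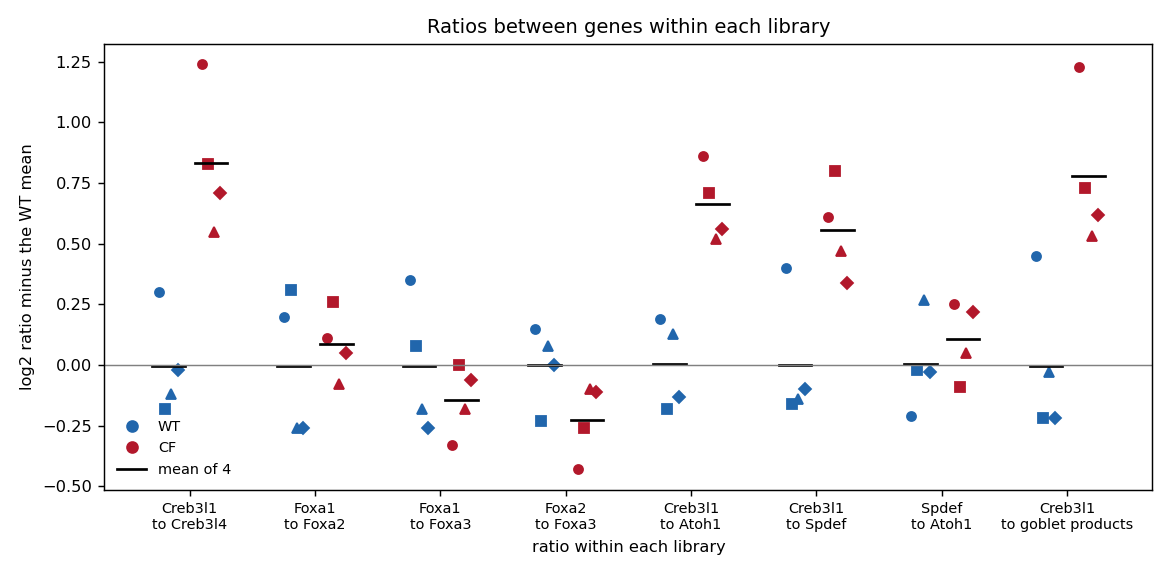
Log2 ratio between genes within each library, minus the WT mean of that ratio, with WT in blue, CF in red, circles, squares, triangles and diamonds for libraries 0 to 3 and lines for means of 4. The ratios of Creb3l1 to Creb3l4, to Atoh1 and to the goblet products have no overlap between groups, with differences of 0.84, 0.66 and 0.78.

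Levels can be compared between genes only per transcript length, as in the deposited FPKM. In WT the order was Klf4 at 48.2 ± 6.47 FPKM, Atoh1 at 26.2 ± 1.25, Creb3l1 at 22.2 ± 5.13, Spdef at 14.6 ± 2.44, Creb3l4 at 12.2 ± 1.44, Foxa3 at 9.13 ± 1.17, Foxa1 at 6.49 ± 1.22, Foxa2 at 2.13 ± 0.164, Gfi1 at 2.11 ± 0.617 and Bhlha15 at 1.14 ± 0.416 (mean ± SD, n = 4). Neighbours whose ranges did not overlap were Klf4 and Atoh1, Creb3l1 and Spdef, Creb3l4 and Foxa3, and Foxa1 and Foxa2, and the other neighbours overlapped. In CF the order was the same except that Creb3l1, at 49.4 ± 12.4 FPKM, stood above Atoh1, at 37.0 ± 5.96 FPKM, though their ranges overlapped. Klf4 was at 61.5 ± 26.5 FPKM in CF, and its range overlapped that of Creb3l1.

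The FPKM values are scaled otherwise than the CPM. Over 9683 loci the median log2 difference of FPKM from CPM was −0.32 in CF library 3 and between −0.06 and 0.16 in the other libraries. Each locus was taken relative to its mean over the libraries. The difference also varied from gene to gene within a library. Creb3l1 was at 80.7 and 78.9 CPM in WT libraries 2 and 3 but at 29.7 and 18.5 FPKM, where the library medians were −0.01 and −0.03. CF library 3, the highest in CPM for 5 members, was the highest in FPKM for none of them. On FPKM 4 members had groups that did not overlap, Atoh1, Foxa3, Creb3l1 and Creb3l4, against 2.24% of tested loci, so Spdef did on CPM only and Creb3l4 on FPKM only.

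**Figure D5:**
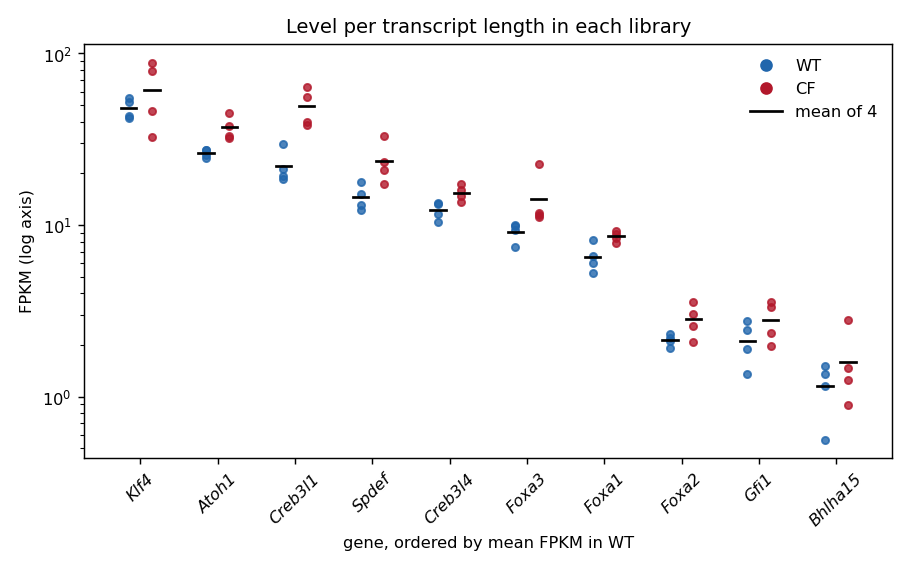
FPKM of each gene in every library on a log axis, ordered by the WT mean, with lines for means of 4 libraries. The means in WT run from 1.14 for Bhlha15 to 48.2 for Klf4, and Creb3l1 has all CF points above all WT points.

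Other transcription factors of the intestinal epithelium were given the same test. Of 20 listed, 18 were found and tested, 13 had a log2 fold change above 0, and the median was 0.10. None passed edgeR's test, 4 had an unadjusted p under 0.05, DESeq2 called 2 and limma-voom none. For this list and those below, such counts take both directions. In both directions DESeq2 called 566 of 18265 loci and limma-voom 17 of 16941. For an unadjusted p only the share of loci higher in CF, 7.94%, was computed. The most abundant per length, the enterocyte and crypt factor Klf5 and the epithelial ETS factor Elf3, had estimates of 0.13 (SE 0.12) and −0.05 (SE 0.17) on the log2 scale. The following were chosen after their values were seen. Neurog3, the enteroendocrine fate factor, averaged 4.47 ± 1.98 CPM in CF against 2.12 ± 1.10 CPM in WT (log2 fold change 1.09, SE 0.40, adjusted p = 0.256). Pou2f3, the tuft cell fate factor, averaged 1.67 ± 0.751 CPM in CF against 4.91 ± 0.506 CPM in WT (log2 fold change −1.55, SE 0.30, adjusted p = 0.0689). Xbp1, the factor of the unfolded protein response, stood at a log2 fold change of 0.18 (SE 0.12). The Notch target Hes1, which represses Atoh1, had one of 0.03 (SE 0.11).

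Of 10 genes of Notch signalling and of the repressors that act with Gfi1 or on Atoh1, 9 were tested, and 3 of them had a log2 fold change above 0. Their median was −0.07. None passed edgeR's test, none had an unadjusted p under 0.05, and DESeq2 and limma-voom called none. The most abundant per length were Rbpj, the DNA-binding partner of Notch (0.03, SE 0.10), and the receptor gene Notch1 (0.02, SE 0.13).

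Among the products of goblet cells, which these factors switch on, 11 of 13 listed genes were tested, 9 had a log2 fold change above 0, and the median was 0.38. None passed edgeR's test, 4 had an unadjusted p under 0.05, DESeq2 called 3 and limma-voom none. The 2 most abundant per length were the lectin gene Zg16 (0.22, SE 0.29) and Agr2, a disulfide isomerase of mucin folding (0.66, SE 0.19, adjusted p = 0.173). The summed level of the list was 10415 to 15724 CPM in CF and 7039 to 12222 CPM in WT, so the groups overlapped. Retnlb and Sytl2 had too few fragments to be tested. The following were chosen after their values were seen. Spink4 averaged 389 ± 89.2 CPM in CF against 86.3 ± 38.4 CPM in WT (log2 fold change 2.17, SE 0.38, adjusted p = 0.0674 from edgeR's test). Muc2 had an estimate of 0.65 (SE 0.18) and Pdia5 one of −0.87 (SE 0.30). The estimate of Spink4 was larger than the 1.21 of Creb3l1, whose ratio was taken to the mean of the 11 genes only.

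Of 17 genes of protein translocation and vesicle coats, machinery that Creb3l1 and its relatives are known to act on, 15 had a log2 fold change above 0 with a median of 0.09. None passed edgeR's test, 3 had an unadjusted p under 0.05, and DESeq2 and limma-voom called none. The most abundant per length were Sar1b, the GTPase that starts the COPII coat (0.02, SE 0.16), and Ssr2, a subunit of the translocon (0.29, SE 0.11). Of the 4 tested genes known to be regulated by MIST1, none passed edgeR's test, while DESeq2 called 1 and limma-voom none. The most abundant per length were the gap junction gene Gjb1 (0.59, SE 0.17, adjusted p = 0.168) and the granule GTPase gene Rab3d (0.49, SE 0.10, adjusted p = 0.0790), and both had an unadjusted p under 0.05. Rab26 (−0.30) and Copz2 (−0.35), chosen after their values were seen, had estimates of the other sign.

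Summed markers of some other cells also stood apart between the groups. None of the smooth muscle, tuft, fibroblast, endothelial, Paneth, enteroendocrine, myeloid or T cell genes tested was called by edgeR. DESeq2 called 2 smooth muscle genes, 2 endothelial genes and 1 each of the tuft, fibroblast, Paneth, enteroendocrine, and myeloid and T cell lists. Over all loci, in either direction, it called 566 of 18265. Of the 7 immediate early genes tested, DESeq2 called 6 and limma-voom 1, and limma-voom called none in those cell type lists. The 4 smooth muscle genes found summed to 4660.4 to 6218 CPM in CF and 2807 to 4195 CPM in WT, with log2 fold changes from 0.12 for Acta2 to 0.97 for Des, and the 6 tuft cell genes to 34.3 to 60.1 CPM in CF and 67.5 to 87.6 CPM in WT. The 7 immediate early genes found summed to 271 to 325 CPM in CF and 139 to 190.4 CPM in WT. None of these groups overlapped, and no gene of the 3 lists was at 0 in all libraries. The 1 gene among them that edgeR called was Junb (log2 fold change 1.14, adjusted p = 0.00147). The 5 fibroblast genes found, a cell type that also makes Creb3l1, summed to 723 to 1313 CPM in CF and 1086 to 1839.7 CPM in WT, and all 4 of those tested had a log2 fold change below 0. The 6 Paneth cell genes, which depend on several of the same factors, summed to 1641 to 2430.5 CPM in CF and 1494 to 3554 CPM in WT, with Defa5 and the locus matched to Ang at 0. Of the 4 Paneth genes tested, 1 had a log2 fold change above 0, and the median was −0.58. Defa24, the most abundant per length, averaged 447 ± 84.2 CPM in CF against 1028 ± 351 CPM in WT. Its log2 fold change was −1.20 (SE 0.25, adjusted p = 0.0825 from edgeR's test). The estimates were −0.56 for Lyz2, −0.59 for Mmp7 and 0.46 for Pla2g2a. Endothelial genes, 5 of them tested and 1 with a log2 fold change above 0, summed to 66.6 to 103 CPM in CF and 99.5 to 129 CPM in WT. Enteroendocrine genes (335 to 384 CPM in CF, 303 to 426 CPM in WT) and myeloid and T cell genes (113 to 176 CPM in CF, 137 to 175 CPM in WT) overlapped between groups. The part of these cells in the levels of the 10 factors was not tested.

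Over the whole series the libraries held 15.3 to 20.9 M fragments, and 28 loci passed the test, 23 higher and 5 lower in CF. Stomach markers summed to at most 0.848 CPM in any library, with Muc5ac at 0, while the enterocyte markers that define the labelled tissue summed to at least 10122 CPM.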

How the data were processed

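RNA was sequenced from 8 samples of rat small intestine, 4 CF and 4 WT. The submitters' processing notes name bcl2fastq, cutadapt, STAR 2.3.1z, StringTie and Cuffdiff, with build Rnor_6.0. The sources used here give neither their settings nor their order. As estimated counts the table holds raw fragments per locus and library, as deposited by the authors, and 5.99% of them were fractional, so all were rounded. The FPKM values were scaled between libraries and by length by the authors with Cuffdiff, per the file headers. 2 further per-library columns were not used. The table's numbers 0 to 3 do not match the titles' numbers 1 to 4, so libraries were tied to titles within a group only as placeholders, and no result uses that tie.

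Loci were kept by filterByExpr (minimum count 10, minimum total 15), scaled by TMM and tested with edgeR 4.0.16 (robust quasi-likelihood, group only, Benjamini-Hochberg over all tested loci). DESeq2 1.42.0 and limma 3.58.1 were alternatives, in R 4.3.3. The SE is the log2 fold change over the square root of the F statistic. Ratios used log2 CPM with a prior count of 2 and 70 assignments of the libraries. The fit was tested on simulated data, where it called 14% of the loci changed 1.5-fold and 60% of those changed 2-fold. Of its 127 calls there, 9 were false. A member that did not pass may therefore still differ. All 10 members are named. Of the lists of other transcription factors, Notch signalling, goblet products, secretory pathway and MIST1 genes, those called and the 2 with the highest mean FPKM are named. Others named from these lists are untested genes or are said to be chosen afterwards. The remaining lists are given mainly as sums, and the genes named from them were not picked by that rule. The members and lists were chosen with earlier results of these data known, and so were the motifs. The ratios were taken among these same members and lists. Muc2 was matched by a RefSeq synonym. Fragments per library were 34 to 201 for Bhlha15 and 1156 to 4376 for Creb3l1. Lists leave out genes found only in loci of several symbols. Coordinates are as the deposited table gives them.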

Additional observations from a re-analysis of the deposited data

How the results depend on the processing

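All 170 log2 fold changes of the members under the 17 alternatives were above 0, and the members' median ranged from 0.34 to 0.60. Creb3l1 was called in 15 of the 17 alternatives. The exceptions were limma on log2(FPKM + 1), with a log2 fold change of 1.11 (adjusted p = 0.0753), and on log2(FPKM + 0.1), with 1.14 (0.0765), where 0 members were called. The number of members called was 5 with no low-count filter, 4 with DESeq2 and 1 to 2 with 1 library left out, the 2 being Creb3l1 and Klf4 without CF library 0. The number of all loci called, 28 in the main test, was 553 with no low-count filter, 566 with DESeq2, 17 with limma-voom, 12 on log2(FPKM + 1) and 15 on log2(FPKM + 0.1). With 1 library left out it was 5 to 136, the top value without CF library 0, then 77 once CF library 2 was removed, and 5, 5 and 6 upon removal of WT libraries 1, 2 and 3. The cause was not tested. The count of members with groups that did not overlap, 4, was 7 without WT library 1, a setting added after seeing the data. The library numbers did not pair the samples: deviations from the group means of same-numbered libraries correlated at 0.07, −0.11, 0.16 and −0.01. With the number as a replicate block, 11 loci were called, Creb3l1 among them (log2 fold change 1.21, adjusted p = 0.0206). The ratio differences of 7 of the 8 ratios kept their sign under all alternatives, while that of Foxa1 to Foxa2, 0.08, was 0.00 and −0.00 without WT libraries 2 and 3. On log2(FPKM + 0.1) the ratio of Creb3l1 to Atoh1 had p = 0.0571 and that to Spdef p = 0.0286 (exact permutation), the reverse of the result on CPM. With a prior count of 0.5 these were 0.0286 and 0.0571, as on CPM, and with 1 library left out the ratios were computed as values only. Over the alternatives the log2 fold change was 0.23 to 0.67 for Bhlha15, 0.17 to 0.64 for Gfi1 and 0.22 to 0.63 for Klf4. Precision did not follow fragment number alone, since Klf4, with 1727 to 4345 fragments per library, and Gfi1, with 47 to 157, both had an SE of 0.27.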
